A study of Rattus norvegicus with 6 samples.

Results

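Lysosomes, the pump that acidifies them and the autophagy machinery that feeds them are described here through the RNAs that encode them, in RNA pulled down from GH4C1 cells. The genes were chosen by name: subunits and accessory proteins of the V-ATPase (Atp6v and Atp6ap), the numbered Atg and Vps genes, Lamp1 to Lamp3, the cathepsins, the Chmp genes, the Gabarap and Map1lc3 genes, Ulk1 to Ulk3 and Becn1. The names matched 115 of the 32883 rows of the count table, with 114 different names, because Vps37c has 2 rows. The rule uses names and no measured value.

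GH4C1 is an established rat pituitary line that makes growth hormone and prolactin. All 6 libraries came from wild-type GH4C1 cells treated with psoralen, a compound that links base-paired strands of nucleic acid, and the study set out to find RNAs that pair directly with the long noncoding RNA Neat1, the scaffold of nuclear paraspeckles. RNA was retrieved with oligo pool A in 3 libraries and with oligo pool B in 3 others. The labels give neither the sequences of the pools nor a control role for one of them, and they do not say whether libraries of a pool came from separate cultures, so p-values measure the spread between these libraries, which may be technical. RNA before pull-down was not analysed here, so levels are of retrieved RNA, with no measure of enrichment over the cells' own RNA.

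The V-ATPase is a rotary proton pump: a V1 sector in the cytosol splits ATP and turns a V0 ring in the membrane, and the acid it makes is needed by lysosomal proteases such as the cathepsins. Autophagy wraps cytoplasm in a double membrane under the ULK1 and Beclin 1 kinase complexes, tags that membrane with lipid-linked Atg8 proteins (the LC3 and GABARAP families) and delivers it to the lysosome. ESCRT proteins bud vesicles into endosomes and close membranes, the HOPS and CORVET complexes tether endosomes and lysosomes before fusion, and retromer and GARP return receptors to the trans-Golgi network. In a hormone-secreting cell the same routes also dispose of surplus secretory granules.

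Each library held between 1826390 and 3685899 counts. A row at 0 may hide as many as 3 counts, or 0.814 to 1.64 CPM depending on the library (counts scaled to the total of that library and multiplied by 1e+06). The summed level of the 6 somatolactotroph markers was 7713 to 8631 CPM with pool A and 30512 to 37614 CPM with pool B, a gap held by the granule protein gene Chgb (log2 fold change of pool A over pool B -2.94), while Prl, Scg2 and Chga were called on the pool A side, at 0.83, 0.77 and 0.63, and Gh1 and Pou1f1 were not called. Growth hormone, prolactin and Pou1f1 transcripts were counted in every library, with at least 342, 909 and 398 counts. Of the fibroblast markers, Col3a1 was at 0 and Col1a1 at 3 counts or fewer in every library, while Dcn had between 15 and 55. The summed level of the 4 leukocyte markers was between 1.19 and 6.59 CPM with pool A and 0 with pool B, the 4 markers of other pituitary lineages summed to between 9.096 and 19.4 CPM with pool A and 40.9 to 45.02 CPM with pool B, most of it Lhb, and their part in the results below was not tested.

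Transcripts of this system differed between the pools in both directions, and the largest differences lay with pool B. The transcript of cathepsin L, a cysteine protease of lysosomes and secretory granules, was 12.2-fold higher with pool B, and that of Atg9a, the membrane protein that scrambles lipids in the growing autophagosome, was 6.09-fold higher there. Vps37d, an ESCRT-I subunit, led the other direction with a 5.41-fold higher level with pool A. Of the 115 rows, 94 passed the expression filter and were tested. Of these, 38 differed past an adjusted p of 0.05 in edgeR's quasi-likelihood test, with 18 called on the pool A side and 20 on the pool B side.

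Those counts are close to the background of the whole table. The 38 genes are 40.4% of the tested members, where 40.6% of all 11582 tested rows were called. Genes higher with pool A made up 19.1% against 18.6% over all rows, and genes higher with pool B 21.3% against 22.0%. More than 2-fold differences among the called members numbered 9 with pool A and 12 with pool B, or 21 of 94 against 25.4% of all tested rows. More than 4-fold differences numbered 1 and 4, against 7.82% of all tested rows. The CPM ranges of the pools did not overlap for 45 of the 94 members (47.9%), against 49.1% of all tested rows. Differences are given as log2(A/B), the edgeR log2 fold change of pool A over pool B, and its median was 0.05 for the members and 0.02 for all tested rows. As a group, then, the members were called about as often as the table at large, and what follows describes single genes and complexes.

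The split of calls between the pools moved with the scaling. With edgeR's TMM factors 47.4% of the called members were higher with pool A. With upper-quartile factors the share was 58.8%, that is 20 of 34 calls. The whole table moved the same way, from 45.8% of all calls with TMM to 52.8% with upper-quartile factors. Upper-quartile factors moved the median over all tested genes by 0.10 on the log2 scale, and total counts alone moved it by -0.14. CPM values here are per total count and fold changes are from the TMM fit, so a gene with slightly lower CPM with pool A can have a fold change near 0.

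**Figure D1:**
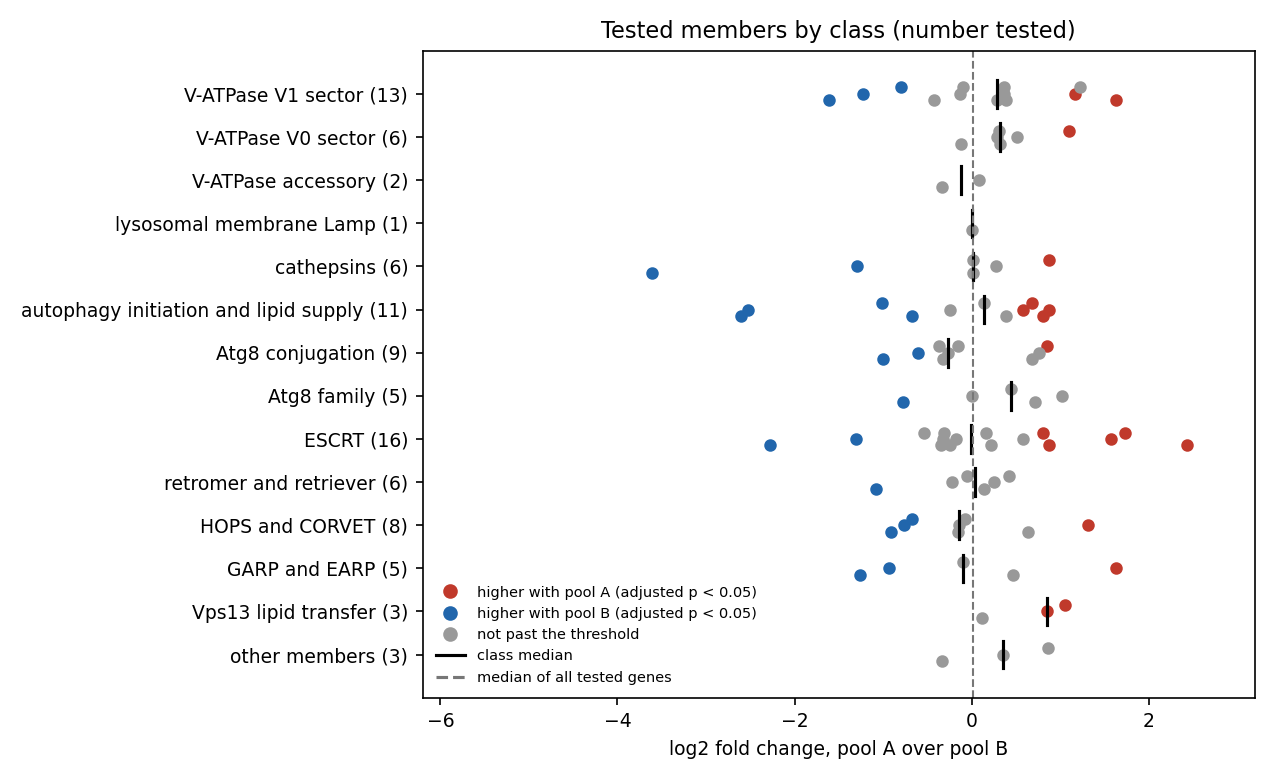
Log2 fold change (pool A over pool B) of the 94 tested members by class, with red points for genes higher with pool A, blue points for genes higher with pool B, grey points for genes not past the threshold, a black tick at each class median and a dashed line at the median of all tested genes. V1, cathepsin, initiation, conjugation, ESCRT, HOPS and GARP classes hold called genes of both colours, and the cathepsin and autophagy initiation classes reach farthest to the left, to -3.61 and -2.61.

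The summed level of all members averaged 4518 ± 170.2 CPM (SD, n = 3) in pool A libraries, against 5479.7 ± 134 CPM (SD, n = 3) in pool B libraries. Without Ctsl and Atg9a, a pair singled out after their values were seen, the sums were 4392 ± 161 CPM (SD, n = 3) and 4279.8 ± 129 CPM (SD, n = 3). The second pair of sums differed by less than the SD of either pool. Ctsl and Atg9a were removed because of their values, so a smaller gap followed from that choice. Differences of other members in both directions offset each other in these sums.

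Among the cathepsins 3 of 6 tested genes were called, near the 40.6% of all tested rows. Ctsl (ENSRNOG00000018566) was counted at 53.2, 48.6 and 53.3 CPM with pool A and at 752, 681 and 664 CPM with pool B, for replicates 1, 2 and 3. All pool B libraries were far above all pool A libraries, and within a pool the libraries lay close together. The log2(A/B) was -3.61 ± 0.14 (SE), edgeR adjusted p 4.85e-17. Ctsd (ENSRNOG00000020206), the main aspartic protease of lysosomes, had 43.1, 20.96 and 15.1 CPM with pool A and 74.3, 79.4 and 65.1 CPM with pool B. Its pool B libraries were alike, its pool A libraries ranged widely, and the ranges did not overlap. The log2 fold change of Ctsd was -1.29 ± 0.28 (SE), edgeR adjusted p 0.000394. Without pool A replicate 1, its highest pool A library, it was -1.87, and without pool A replicate 3, its lowest, -0.96, with edgeR adjusted p of 3.58e-06 and 0.00357.

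Ctsa (ENSRNOG00000015857) went the other way. It encodes a serine carboxypeptidase that also protects lysosomal neuraminidase and beta-galactosidase. Its levels were 84.9, 92.5 and 104 CPM with pool A and 57.9, 50.4 and 60.2 CPM with pool B, without overlap, and its log2(A/B) was 0.88 ± 0.18 (SE), edgeR adjusted p 0.000204. Ctsb, a cysteine protease of the same family as Ctsl, had 42.1, 42.3 and 27.9 CPM with pool A and 43.3, 44.9 and 35.6 CPM with pool B. These ranges overlapped, and the log2(A/B) of 0.02 had a 95% interval of -0.48 to 0.51. Ctsf and Ctsh were counted at low levels, with log2 intervals of -0.85 to 1.39 and -1.57 to 1.60.

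The other 11 cathepsin genes did not pass the filter with all 6 libraries and were not tested in that fit. Ctsc, Ctse, Ctsg, Ctsj, Ctsm, Ctsr and Ctss had no count in any library. Ctss and Ctsc are best known from immune cells, though not limited to them, and Ctsj, Ctsm, Ctsq and Ctsr belong to a placental cluster of rodents. Ctsk, Ctsq, Ctsw and Ctsz had at most 12 counts in any library.

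Many genes of this system are known targets of TFEB, a transcription factor that binds E-boxes of the CLEAR type. RefSeq promoter windows of the GRCr8 assembly were matched for 94 of the 114 member names, and the 250 bases before the gene start were searched for TCACGTGA, the palindromic core of that element, which reads the same on both strands. It was present for 8 members (8.51%) and for 0.776% of the 27457 gene symbols with a window. The 8 members were Atg3, Atp6v0d1, Ctsd, Lamp1, Vps11, Vps16, Vps26a and Vps33a. A few windows are printed 5′ to 3′ with matches in capitals, to set genes with the element beside the most strongly differing gene without it.
Ctsd promoter (GRCr8, chr1:206968822-206969071, minus strand): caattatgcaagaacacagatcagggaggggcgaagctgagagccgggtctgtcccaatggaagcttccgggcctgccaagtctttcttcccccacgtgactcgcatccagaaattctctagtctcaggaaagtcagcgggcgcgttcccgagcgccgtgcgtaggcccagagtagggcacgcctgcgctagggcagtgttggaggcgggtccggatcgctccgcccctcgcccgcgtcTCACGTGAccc
Lamp1 promoter (GRCr8, chr16:83075064-83075313, minus strand): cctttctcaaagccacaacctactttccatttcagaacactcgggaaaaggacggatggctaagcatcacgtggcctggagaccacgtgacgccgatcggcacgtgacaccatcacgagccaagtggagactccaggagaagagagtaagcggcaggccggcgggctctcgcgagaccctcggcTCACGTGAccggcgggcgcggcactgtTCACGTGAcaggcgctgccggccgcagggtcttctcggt
Vps26a promoter (GRCr8, chr20:30976890-30977139, minus strand): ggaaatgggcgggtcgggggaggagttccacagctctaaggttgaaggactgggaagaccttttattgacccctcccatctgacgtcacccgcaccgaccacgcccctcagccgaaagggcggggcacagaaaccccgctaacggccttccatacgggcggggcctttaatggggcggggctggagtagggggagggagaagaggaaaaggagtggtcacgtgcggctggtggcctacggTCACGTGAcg
Ctsl promoter (GRCr8, chr17:769854-770103, plus strand): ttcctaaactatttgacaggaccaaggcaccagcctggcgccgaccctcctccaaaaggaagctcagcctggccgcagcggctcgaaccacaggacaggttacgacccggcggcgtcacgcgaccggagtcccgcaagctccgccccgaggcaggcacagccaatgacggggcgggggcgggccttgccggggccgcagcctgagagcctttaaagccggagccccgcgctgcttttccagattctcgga
The match in Ctsd starts at position -11 from the gene start, those in Lamp1 at -66 and -39, and that in Vps26a at -10. Of the 8 members with the core, Ctsd and Vps11 differed between the pools, both higher with pool B. Among members with a window but no match, 31 of 70 tested genes differed, near the 40.6% of all tested rows, and the 2 counts were not tested against each other. These are matches of letters in a promoter, while the libraries measured pulled-down RNA.

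Lamp1 (ENSRNOG00000019629), one of the most abundant glycoproteins of the lysosomal membrane, was counted at 109, 117 and 97.6 CPM with pool A and 133, 110.1 and 115 CPM with pool B. The ranges overlapped. Its log2(A/B) of 0.00036 had a 95% interval of -0.33 to 0.33, and its edgeR adjusted p was 0.999. Lamp2 was listed at 0 in all 6 libraries, and Lamp3 had 2 counts in 1 library, so neither was tested.

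Of 21 tested pump and accessory genes 6 were called (28.6%, against 40.6% of all tested rows), 3 of them higher with each pool, and the median log2 fold change was 0.29. In the V1 class, 5 of 13 tested genes were called (38.5%). Both counts include Atp6v1fnb, which is not known as a pump subunit, and without it they are 4 of 12 in the V1 class and 5 of 20 over all pump and accessory genes, 3 on the pool A side and 2 on the pool B side. Atp6v1c1 (ENSRNOG00000004846) encodes subunit C, a stator part that lets go when V1 detaches from V0. It had 133, 151 and 119.8 CPM with pool A and 54.2, 44.9 and 45.02 CPM with pool B. The lowest pool A library was more than 2-fold above the highest pool B library, and the log2(A/B) was 1.63 ± 0.18 (SE), edgeR adjusted p 2.15e-08.

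Atp6v1e1, which encodes subunit E of the peripheral stalks, was likewise higher with pool A. Its levels were 87.4, 94.5 and 92.5 CPM with pool A and 63.7, 32.3 and 36.7 CPM with pool B. Pool A libraries were tight, and pool B replicate 1 stood above the other pool B libraries without reaching them. The log2(A/B) was 1.17 ± 0.21 (SE), edgeR adjusted p 6.27e-05. The remaining pool A gene was in the V0 sector: Atp6v0b, a proteolipid of the rotating ring, with 16.8, 22.9 and 17.6 CPM against 7.498, 14.8 and 7.94 CPM, with log2(A/B) of 1.10 ± 0.38 (SE), edgeR adjusted p 0.0222. It was lost without pool A replicate 2, pool B replicate 1 and pool B replicate 3, with adjusted p of 0.11, 0.0798 and 0.0809.

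Atp6v1d, for subunit D of the central rotor, and Atp6v1c2, the tissue-restricted form of subunit C, were higher with pool B. Atp6v1d had 9.77, 15.03 and 15.7 CPM with pool A and 22.2, 27.9 and 27.6 CPM with pool B, and Atp6v1c2 had 4.07, 3.16 and 0.627 CPM and 8.52, 7.12 and 11.3 CPM. The forms of subunit C thus lay on opposite sides, Atp6v1c1 at 1.63 and Atp6v1c2 at -1.60 on the log2 scale, though the difference between the forms was not itself tested. Atp6v1fnb, named for its place beside Atp6v1f, had 6.24, 10.3 and 2.82 CPM with pool A and 15.00, 16.4 and 18.5 CPM with pool B. Their log2(A/B) values were -0.80 ± 0.32 (SE), -1.60 ± 0.65 (SE) and -1.22 ± 0.46 (SE) for Atp6v1d, Atp6v1c2 and Atp6v1fnb, with edgeR adjusted p of 0.0462, 0.0491 and 0.0364. These 3 calls are near the threshold: all were lost with upper-quartile factors and in DESeq2. Atp6v1d was also lost without any one library other than pool B replicate 1, at adjusted p between 0.061 and 0.182. Atp6v1c2 was lost without any one library other than pool A replicate 1, at adjusted p between 0.0626 and 0.195. Atp6v1fnb was lost without any one library other than pool A replicate 2, at adjusted p between 0.0517 and 0.161.

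The catalytic core of the pump did not pass the threshold. Atp6v1a, for the ATP-splitting subunit A, had 45.9, 34.01 and 35.8 CPM with pool A and 64.8, 47.1 and 60.2 CPM with pool B, log2(A/B) of -0.43 ± 0.22 (SE), edgeR adjusted p 0.121. With total counts alone it passed, at 0.0421. Atp6v1b2, the common form of subunit B, had log2(A/B) of 0.39 ± 0.26 (SE), and Atp6v1b1, best known from kidney and inner ear, had 20 counts or fewer in every library. Among the forms of subunit G, Atp6v1g1 had 138, 117 and 99.4 CPM with pool A and 125, 107 and 90.4 CPM with pool B, Atp6v1g2, which overlaps the called gene Nfkbil1 (at -0.98), had log2(A/B) of 0.36, and Atp6v1g3, best known from kidney, was counted at between 62.1 and 82.5 CPM with log2(A/B) of -0.09. In the V0 sector Atp6v0a1, the membrane anchor of the pump, had 129, 104 and 115 CPM with pool A and 115, 108 and 88.2 CPM with pool B, which overlapped. Its edgeR adjusted p was 0.126, and it passed at 0.0392 with upper-quartile factors. The other tested ring and anchor genes, Atp6v0c, Atp6v0d1, Atp6v0e1 and Atp6v0e2, were at 0.32, -0.12, 0.29 and 0.51, and the V1 genes Atp6v1f and Atp6v1h at -0.13 and 0.36, none past the threshold. Of the accessory proteins, Atp6ap1 had log2(A/B) of -0.33 ± 0.19 (SE) and Atp6ap2, the prorenin receptor, one of 0.09 ± 0.62 (SE). Both missed the threshold in edgeR, with neither under an unadjusted p of 0.05 and neither called by DESeq2. Atp6v0a4, Atp6v0d2, Atp6v1e2 and Atp6ap1l were not tested, the first with 14 counts or fewer in any library and the others with 3 or fewer.

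**Figure D2:**
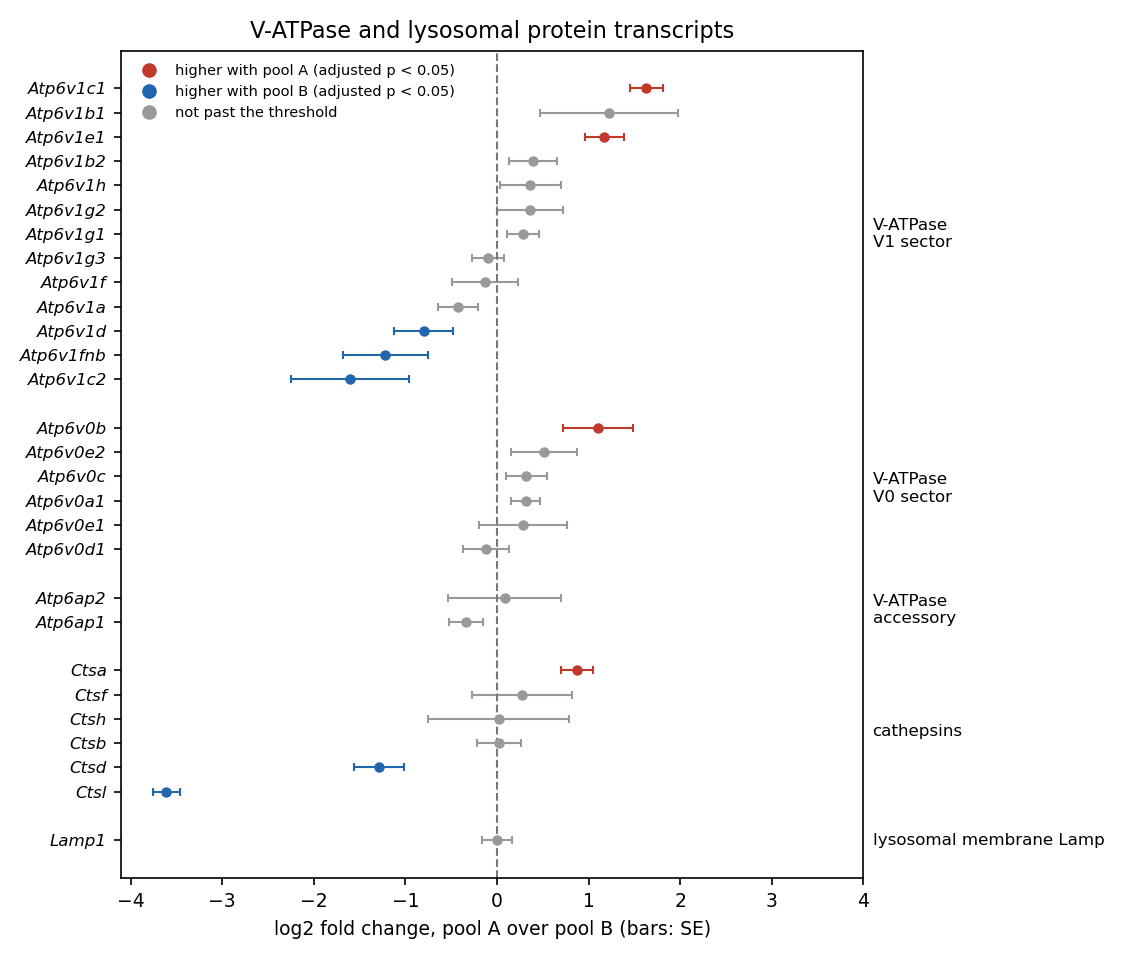
Log2 fold change (pool A over pool B, bars are SE) of the tested V-ATPase, cathepsin and Lamp genes, ordered within class, red for higher with pool A, blue for higher with pool B and grey for not past the threshold. Atp6v1c1 and Atp6v1e1 lie to the right, the V0 genes besides Atp6v0b lie between -0.12 and 0.51, and Ctsl lies far to the left at -3.61.

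In autophagy initiation and lipid supply, 8 of 11 tested genes differed, 4 in each direction, where 40.6% of all tested rows were called. No test sets this class against the table. The largest difference was in Atg9a (ENSRNOG00000018975), with 76.5, 65.6 and 80.6 CPM with pool A and 454, 522 and 527 CPM with pool B. Every pool B library was over 5-fold above every pool A library. The log2(A/B) was -2.61 ± 0.14 (SE), edgeR adjusted p 2.44e-14. Its paralog Atg9b had far fewer counts, 7, 2 and 2 with pool A and 34, 10 and 14 with pool B, and log2(A/B) of -2.53 ± 0.73 (SE), edgeR adjusted p 0.00677. The Atg9b call was lost without pool B replicate 1, where log2(A/B) was -2.05 and the adjusted p 0.0807, while without pool A replicate 1 it was -3.20 at an adjusted p of 0.0112.

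The Beclin 1 complex makes the lipid phosphatidylinositol 3-phosphate that marks the site of autophagosome growth. Becn1 (ENSRNOG00000020513) had 157, 179 and 182 CPM with pool A and 106, 113 and 108 CPM with pool B, without overlap, and log2(A/B) of 0.81 ± 0.15 (SE), edgeR adjusted p 5.62e-05. Atg14, the subunit that directs this complex to autophagy, was on the other side, with 21.98, 24.5 and 23.8 CPM with pool A and 38.9, 36.1 and 48.05 CPM with pool B. The log2 fold change of Atg14 was -0.67 ± 0.25 (SE), edgeR adjusted p 0.031. That call did not hold with upper-quartile factors, in DESeq2 or without a filter, nor without pool A replicate 1, pool A replicate 2, pool A replicate 3 and pool B replicate 3, where the adjusted p was 0.0905, 0.0562, 0.0859 and 0.158.

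The Ulk kinases were called in opposite directions or not at all. Ulk2, which shares the initiating role with Ulk1, had 30.4, 36.4 and 33.3 CPM with pool A and 18.7, 20.8 and 20.8 CPM with pool B, log2(A/B) of 0.87 ± 0.26 (SE), edgeR adjusted p 0.00881. Ulk3, a relative that also acts on ESCRT-III at cell division, had 18.4, 17.8 and 24.5 CPM with pool A and 41.2, 27.9 and 63.9 CPM with pool B. Its pool B libraries were spread out, and the log2(A/B) of -1.01 ± 0.28 (SE) (edgeR adjusted p 0.00494) was -0.64 without pool B replicate 3, at an adjusted p of 0.111. Ulk1 did not pass the threshold, with log2(A/B) of -0.25 ± 0.26 (SE) and an interval of -0.79 to 0.29. Of the partners of Ulk1, Atg101 was higher with pool A at 0.58 ± 0.18 (SE), though its CPM ranges overlapped and total counts alone ended the call (adjusted p 0.0621), and Atg13 had log2(A/B) of 0.39 with an interval of -0.56 to 1.35.

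Atg2 proteins carry lipids into the growing membrane. Atg2a had 117, 93.3 and 99.8 CPM with pool A and 67.8, 78.3 and 68.5 CPM with pool B, log2(A/B) of 0.69 ± 0.17 (SE), edgeR adjusted p 0.00178. Atg2b, with 136, 109 and 111 CPM and 122, 128 and 110.1 CPM, overlapped between the pools and had log2(A/B) of 0.14 with an interval of -0.19 to 0.46. The Vps13 proteins are lipid bridges of the same structural family. Vps13c had 209, 209.6 and 248 CPM with pool A and 152, 131 and 125 CPM with pool B, and Vps13a had 63.2, 79.1 and 55.8 CPM and 42.9, 32.9 and 29.5 CPM. Both were higher with pool A in every library, at 0.85 ± 0.14 (SE) and 1.06 ± 0.22 (SE) with edgeR adjusted p of 1.93e-05 and 0.000351. Vps13d, the third one tested, was at 0.11 with an interval of -0.27 to 0.49.

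Atg8 conjugation attaches the Atg8 proteins to lipid. Of its 9 tested genes 3 were called (33.3%, against 40.6% of all tested rows). Atg16l1 (ENSRNOG00000017913), which places the conjugating complex on the membrane, had 64.3, 66.05 and 94.7 CPM with pool A and 167, 152 and 176 CPM with pool B. The ranges were well apart, with log2(A/B) of -1.003 ± 0.16 (SE), edgeR adjusted p 1.15e-05. Its paralog Atg16l2 went the same way, with 31.5, 37.2 and 21.6 CPM and 50.4, 47.6 and 54.5 CPM, with log2(A/B) of -0.61 ± 0.24 (SE), edgeR adjusted p 0.047. That call was lost under 10 of the 13 alternatives, including the omission of any one library other than pool A replicate 2, at adjusted p between 0.0561 and 0.258.

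Atg4b, the main protease that trims Atg8 proteins and later frees them, was higher with pool A. It had 44.2, 46.7 and 51.8 CPM with pool A and 22.2, 30.1 and 35.2 CPM with pool B, log2(A/B) of 0.85 ± 0.23 (SE), edgeR adjusted p 0.0045. Its paralogs Atg4c and Atg4d had log2(A/B) values of 0.76 ± 0.55 (SE) and -0.32 ± 0.22 (SE) and did not pass. Atg4d overlaps Kri1 in RefSeq, which was called at -1.97. The enzymes of the conjugation cascade itself, Atg7 (the E1-like enzyme) and Atg3 (the E2-like enzyme for Atg8), were at -0.16 ± 0.25 (SE) and -0.36 ± 0.22 (SE), and Atg5 and Atg12, which form the E3-like conjugate, at 0.69 ± 0.54 (SE) and -0.27 ± 0.35 (SE), none of them past the threshold. Atg10 was not tested, with at most 15 counts in a library.

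Of the 5 Atg8 genes 1 was called, a smaller share than the 40.6% of all tested rows with no test of that difference: Gabarapl1 (ENSRNOG00000053362), with 54.5, 41.5 and 51.4 CPM with pool A and 88.96, 112 and 81.3 CPM with pool B. All pool B libraries were above all pool A libraries, and the log2(A/B) was -0.78 ± 0.19 (SE), edgeR adjusted p 0.00126. Map1lc3b, the LC3 protein most used as an autophagosome marker, had 48.6, 51.8 and 75.9 CPM with pool A and 69.5, 65.2 and 58.3 CPM with pool B, and its log2(A/B) of 0.01 had an interval of -0.39 to 0.41. Gabarapl2 and Map1lc3a had no overlap of CPM between the pools, with more counts with pool A, but at 1.02 ± 0.53 (SE) and 0.72 ± 0.36 (SE) their edgeR adjusted p were 0.127 and 0.121. Gabarap was at 0.44 ± 0.45 (SE).

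**Figure D3:**
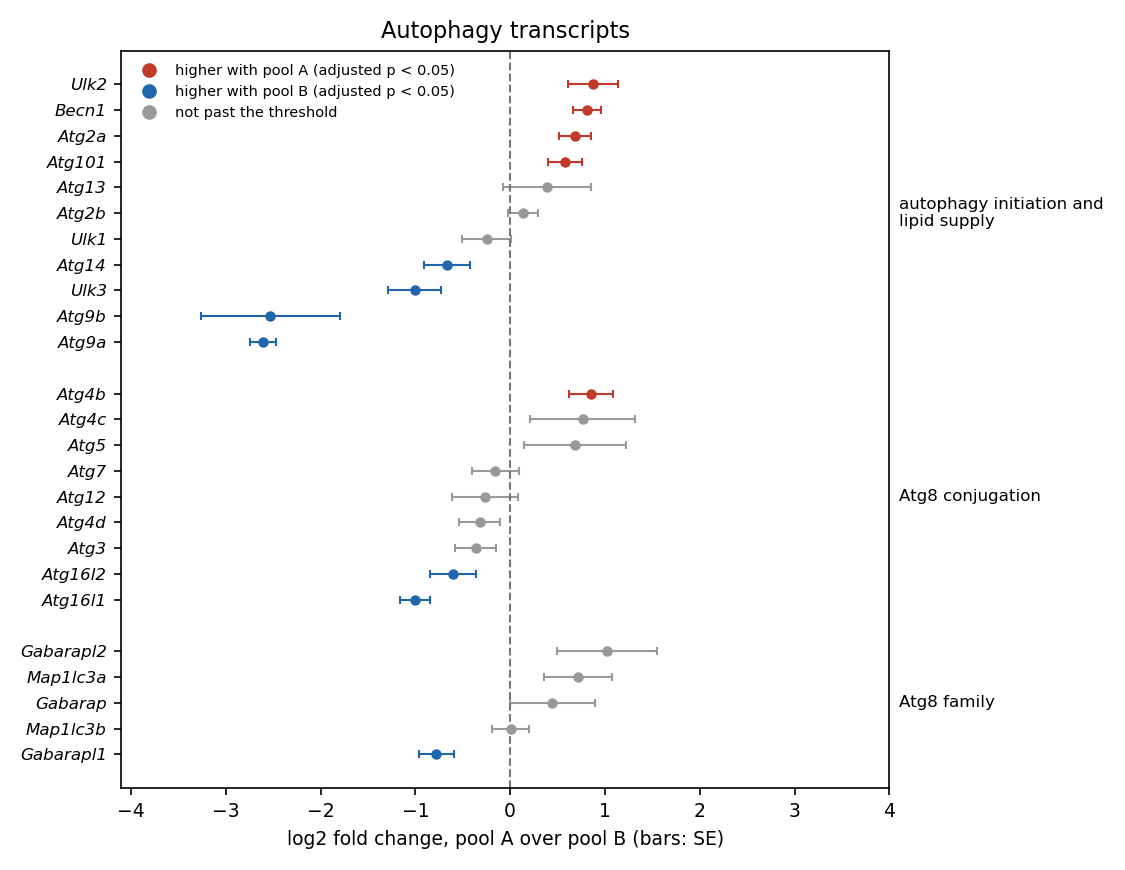
Log2 fold change (pool A over pool B, bars are SE) of the 25 tested autophagy genes, grouped into initiation and lipid supply, Atg8 conjugation and the Atg8 family, red for higher with pool A, blue for higher with pool B and grey for not past the threshold. Atg9a and Atg9b share the far left, Becn1 and Atg14 lie on opposite sides, and Ulk1, Ulk2 and Ulk3 lie apart.

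ESCRT genes were called on both sides. Of 16 tested, 5 were called on the pool A side (31.2%, against 18.6% of all tested rows) and 2 on the pool B side (12.5%, against 22.0%). ESCRT-III is a filament built of CHMP proteins, and 5 of its 8 tested Chmp genes were called (62.5%, against 40.6% of all tested rows, a difference that was not tested). Chmp1a (ENSRNOG00000016001), a late-acting subunit that recruits the disassembling ATPase VPS4, had 28.8, 15.4 and 31.1 CPM with pool A and 119, 158 and 132 CPM with pool B. Its pool B level was several-fold above that of any pool A library, with log2(A/B) of -2.28 ± 0.21 (SE), edgeR adjusted p 7.33e-10.

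The 4 other called Chmp genes were higher with pool A. Chmp2a, a core late subunit, had 133, 112 and 121 CPM with pool A and 50.4, 55.3 and 31.02 CPM with pool B, and Chmp5 had 35.5, 32.03 and 33.3 CPM and 14.3, 7.12 and 11.3 CPM. Neither overlapped between the pools. Their log2(A/B) values were 1.58 ± 0.19 (SE) and 1.73 ± 0.31 (SE), with edgeR adjusted p of 1.64e-07 and 4.22e-05. Chmp6, which links ESCRT-II to ESCRT-III, was at 0.87 ± 0.20 (SE) (edgeR adjusted p 0.000892). Chmp2b, the paralog of Chmp2a, was at 0.81 ± 0.25 (SE) (edgeR adjusted p 0.0114), and at 0.62 with an adjusted p of 0.0672 without pool B replicate 2. Chmp3, Chmp4bl1 and Chmp7 did not pass, at 0.16, 0.23 and -0.32. Chmp4bl1, a gene named as Chmp4b-like, had the highest mean CPM of the ESCRT genes over the 6 libraries, 75.7, 78.3 and 107 CPM with pool A and 74.6, 81.03 and 89.7 CPM with pool B, and reads of near-identical copies could be divided between rows.

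Upstream of ESCRT-III, Vps37d (ENSRNOG00000048699) had 63.8, 31.2 and 68.4 CPM with pool A and 8.86, 12.05 and 12.5 CPM with pool B. Pool A replicate 2 was lower than the other pool A libraries but still above every pool B library, and the log2(A/B) was 2.44 ± 0.29 (SE), edgeR adjusted p 1.06e-07. The other tested forms of this ESCRT-I subunit, Vps37a and Vps37b, were at 0.58 ± 0.29 (SE) and -0.32 ± 0.58 (SE) and did not pass. The ESCRT-II subunit Vps36 was higher with pool B, with 32.01, 18.98 and 25.7 CPM with pool A and 82.8, 54.8 and 71.9 CPM with pool B, at -1.30 ± 0.23 (SE), edgeR adjusted p 4.85e-05. Its partner Vps25 was at -0.35 ± 0.71 (SE) on 12 counts or fewer per library. Vps28 of ESCRT-I was at -0.54 ± 0.25 (SE), edgeR adjusted p 0.0873, and passed at 0.0343 with total counts alone. It also passed with either pool A replicate 1 or pool B replicate 3 omitted. The ATPases Vps4a and Vps4b were at -0.18 ± 0.20 (SE) and -0.25 ± 0.19 (SE), not past the threshold. The Vps37c rows had at most 4 counts in a library and Chmp4c none, and they were not tested.

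HOPS and CORVET share a core of Vps11, Vps16, Vps18 and Vps33a, to which HOPS adds Vps39 and Vps41 and CORVET adds Vps8 and Tgfbrap1. The naming rule does not cover Tgfbrap1, so its level is not given here. Of the 8 tested genes of this class 4 were called, against 40.6% of all tested rows, 3 on the pool B side (22.0% of all rows) and 1 on the pool A side (18.6%). The 8 include the uncalled Vps33b, which is not among the subunits just listed. Both HOPS-specific subunits were higher with pool B. Vps41 had 28.2, 26.9 and 21.96 CPM with pool A and 58.6, 64.6 and 38.2 CPM with pool B, at -0.91 ± 0.25 (SE) (edgeR adjusted p 0.00381). Vps39 had 42.9, 61.3 and 53.3 CPM and 129, 80.5 and 84.7 CPM, at -0.77 ± 0.20 (SE) (edgeR adjusted p 0.00337). Without pool B replicate 1, its highest library, Vps39 was at -0.51 with an adjusted p of 0.0657. The CORVET subunit Vps8 leaned the other way without passing, with 28.5, 28.1 and 37.96 CPM with pool A and 18.4, 24.1 and 24.6 CPM with pool B, at 0.64 ± 0.27 (SE) (edgeR adjusted p 0.056, and 0.0255 with upper-quartile factors).

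In the shared core, Vps18 had 33.9, 26.1 and 22.6 CPM with pool A and 12.95, 10.4 and 13.2 CPM with pool B and was higher with pool A, at 1.31 ± 0.32 (SE) (edgeR adjusted p 0.00133). Vps11, which binds Vps18 in the complex, was higher with pool B, with 30.9, 23.3 and 38.3 CPM and 44.3, 70.1 and 50.3 CPM, at -0.68 ± 0.23 (SE) (edgeR adjusted p 0.022). The Vps11 call was lost with upper-quartile factors (adjusted p 0.128) and without pool A replicate 1, pool A replicate 2 and pool B replicate 2, at adjusted p of 0.051, 0.128 and 0.148. Vps16, the most counted gene of the class, had 144, 142 and 121 CPM with pool A and 154, 141 and 207 CPM with pool B, which overlapped, and Vps33a was at -0.07. Vps33b, grouped with this class but not part of the core listed above, was at -0.14.

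The GARP complex, which tethers vesicles from endosomes at the trans-Golgi, is made of Vps51, Vps52, Vps53 and Vps54, and EARP has Vps50 (also called syndetin) in place of Vps54. Vps52 (ENSRNOG00000000470) was the most counted member with pool A, with 504, 370.2 and 442 CPM there and 168, 143 and 159 CPM with pool B. Its pool A libraries were each more than 2-fold above every pool B library, at 1.63 ± 0.14 (SE), edgeR adjusted p 2.96e-10. Its partners Vps51 and Vps54 were higher with pool B, Vps51 with 13.3, 22.1 and 25.7 CPM against 33.7, 64.6 and 63.2 CPM and Vps54 with 17.9, 20.96 and 24.8 CPM against 51.5, 25.2 and 55.6 CPM. They were at -1.26 ± 0.28 (SE) and -0.94 ± 0.28 (SE), with edgeR adjusted p of 0.000589 and 0.00812, and Vps54 was at -0.73 with an adjusted p of 0.0766 without pool B replicate 3. Vps53 and Vps50 did not pass, at -0.10 ± 0.22 (SE) and 0.47 ± 0.30 (SE). In all 3 of the 5 tested genes of this class were called, against 40.6% of all tested rows, and they lay on both sides.

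Retromer and retriever gave 1 call among 6 tested genes (16.7%, against 40.6% of all tested rows). Vps35, the scaffold of the trimer, had 54.8, 56.2 and 49.9 CPM with pool A and 161, 101 and 113 CPM with pool B, the highest in pool B replicate 1, and was at -1.08 ± 0.19 (SE), edgeR adjusted p 3.5e-05. The other trimer subunits Vps26a, Vps26b and Vps29 were at -0.06 ± 0.39 (SE), 0.14 ± 0.29 (SE) and 0.26 ± 0.42 (SE), and the retriever subunits Vps35l and Vps26c at 0.43 ± 0.27 (SE) and -0.22 ± 0.53 (SE). The 95% intervals were -0.85 to 0.74 for Vps26a and -0.60 to 1.11 for Vps29, wide enough to hold both no difference and a 1.5-fold one. The 3 remaining Vps-named genes were not called: Vps45, an SM protein of membrane fusion, at 0.87 ± 0.71 (SE), Vps9d1, named for its VPS9 domain, at 0.36 ± 0.26 (SE), and Vps72, which despite its name is a subunit of chromatin remodelling complexes, at -0.33 ± 0.22 (SE). None of the 3 had an unadjusted edgeR p under 0.05, and DESeq2 called none of them.

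**Figure D4:**
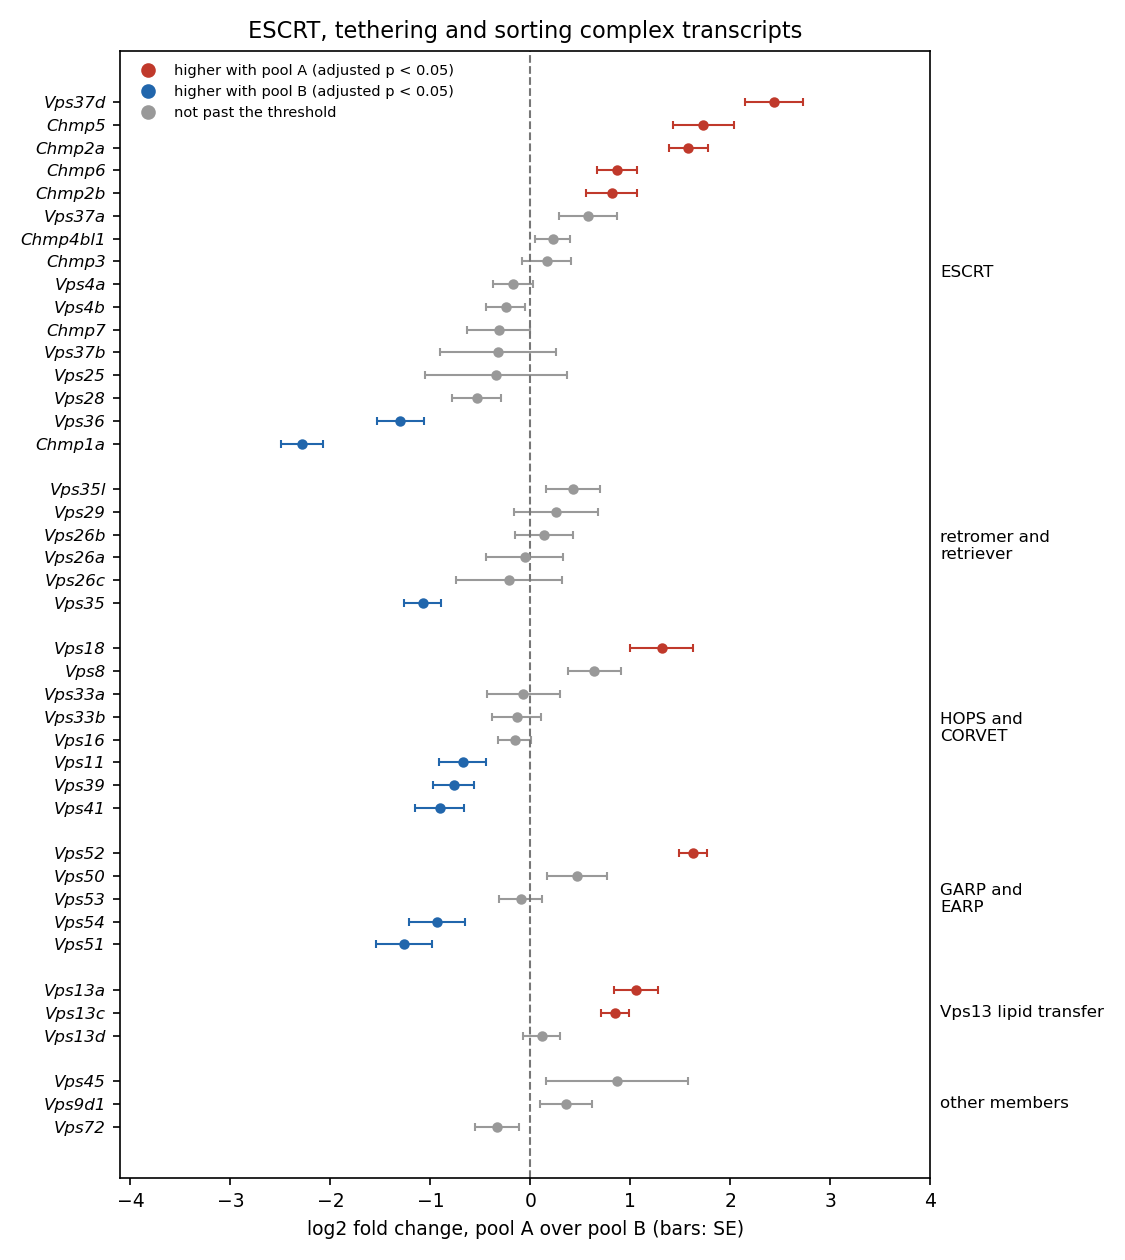
Log2 fold change (pool A over pool B, bars are SE) of the tested Chmp and Vps genes by complex, red for higher with pool A, blue for higher with pool B and grey for not past the threshold. ESCRT, the HOPS and CORVET class and the GARP and EARP class each have red genes at the top and blue genes at the bottom, while the Vps13 genes lie at or right of 0.

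**Figure D5:**
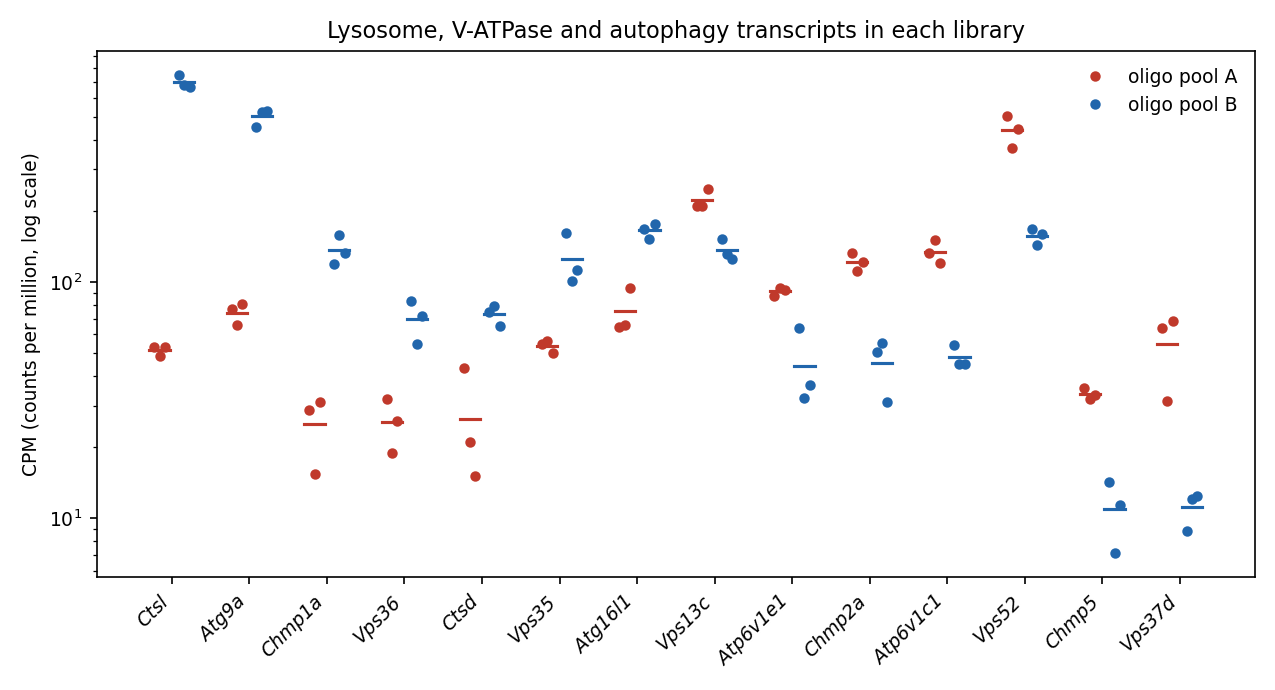
CPM (log scale) of 14 called members in each of the 6 libraries, with red points for oligo pool A, blue points for oligo pool B and a bar at each pool mean (n = 3). The first 7 genes, from Ctsl to Atg16l1, have their higher levels in pool B libraries. The last 7, from Vps13c to Vps37d, have them in pool A libraries. In none of the 14 do the pools overlap, where 49.1% of all tested rows have no overlap. The 14 were picked by hand from the called members, so their lack of overlap follows largely from that choice.

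Neighbouring rows of the table were compared, since the table's rows run largely in genomic order and reads of overlapping genes can be shared under an unstated strand setting. The 38 called members had 34 tested rows directly beside them. Of these 5 were called (14.7%, against 40.6% of all tested rows), 1 in the same direction as the member and 4 in the opposite one. The same-direction row was Bag1 beside Chmp5, at 0.80 on the log2 scale, and the opposite ones were B4galt2 beside Atp6v0b, Pdia6 beside Atp6v1c2, Orc6 beside Vps35 and RT1-A2 beside Vps52. By RefSeq gene spans, 12 of the 113 names with a match overlap another tested protein-coding gene, and the called gene Atp6v1fnb had no match and was not checked. The called ones among them were Chmp2a (with Trim28 at -0.12 and Ube2m at 0.03), Atg9b (with Nos3 at -0.11), Ctsa (with Neurl2 at 0.51) and Atp6v1c2 (with Nol10 at 0.61), and none of these partners was called.

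Lists of other genes of the same pathways gave a similar mixture. Of 112 names in 5 lists, 107 were in the table, 99 were tested and 38 were called, 19 in each direction, which is 38.4% against the 40.6% of all tested rows. Of 22 tested autophagy genes 8 were called (36.4%), 5 on the pool A side and 3 on the pool B side. Rb1cc1, the scaffold of the Ulk1 complex also known as FIP200, averaged 426 ± 61.2 CPM (SD, n = 3) in pool A libraries, against 72.4 ± 11.2 CPM (SD, n = 3) in pool B libraries, at 2.71 ± 0.16 (SE), edgeR adjusted p 2e-13. Wdr45b was at 1.89 ± 0.24 (SE), and its paralog Wdr45 was on the other side at -0.82, a call lost on leaving out replicate 1 of pool A, replicate 1 of pool B or replicate 3 of pool B (adjusted p 0.0623 to 0.0824). The cargo receptors Sqstm1 (p62) and Optn were higher with pool B: Sqstm1 had 1401 ± 114 CPM (SD, n = 3) there and 269 ± 40.9 CPM (SD, n = 3) with pool A, at -2.24 ± 0.14 (SE), and Optn was at -1.09 ± 0.18 (SE).

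Lysosomal hydrolases and membrane proteins gave 10 calls among 29 tested (34.5%, against 40.6%), 7 on the pool A side (24.1%, against 18.6% of all rows) and 3 on the pool B side (10.3%, against 22.0%). Arsa, arylsulfatase A, led with pool A at 1.58 ± 0.17 (SE), followed by Naglu at 1.33 ± 0.48 (SE), whose call was lost on leaving out replicate 1 of pool A, replicate 3 of pool A or replicate 3 of pool B (adjusted p 0.0747 to 0.131). The pool A calls of Lgmn, Asah1 and Cln3 could also be lost on leaving out a single library, at edgeR adjusted p up to 0.513, 0.0653 and 0.0978. Arsb, arylsulfatase B, was at -2.18 ± 0.19 (SE) and Scarb2, the membrane protein LIMP-2 that brings glucocerebrosidase to lysosomes, at -1.75 ± 0.29 (SE). Of 18 tested genes around mTORC1, the kinase complex that senses amino acids at the lysosome and restrains autophagy, 9 were called, 4 on the pool A side and 5 on the pool B side, against 40.6% of all tested rows. Rragd and Tfeb were higher with pool A at 2.25 ± 0.24 (SE) and 1.13 ± 0.33 (SE), Tfeb with 73, 56 and 153 counts against 51, 23 and 38 and its call lost without pool A replicate 3, its highest library (0.70, adjusted p 0.137), and Akt1s1 and Flcn higher with pool B at -1.54 ± 0.19 (SE) and -1.23 ± 0.26 (SE).

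In the remaining lists, 14 other ESCRT genes gave 5 calls by edgeR on the pool B side and 0 on the pool A side. An unadjusted p under 0.05 added no further gene on either side, and the counts in DESeq2 were also 5 and 0. The edgeR call of Ptpn23 was lost without pool B replicate 1, at -0.39 with an adjusted p of 0.0946. The 5 calls are 35.7% of the list, where all tested rows gave 40.6%, with 22.0% on the pool B side and 18.6% on the pool A side. Ist1, which binds CHMP1 proteins, was at -2.15 ± 0.15 (SE), the direction of Chmp1a, averaging 53.5 ± 5.65 CPM (SD, n = 3) in pool A libraries against 263 ± 6.78 CPM (SD, n = 3) in pool B libraries. Usp8, a deubiquitinase of endosomal cargo that is often mutated in corticotroph pituitary tumours, was at -1.16 ± 0.15 (SE). Of 16 tested retromer and sorting nexin genes 6 were called (37.5%, against 40.6%), 3 on each side. Ccdc22 and Washc2c were higher with pool A at 1.15 ± 0.20 (SE) and 0.99 ± 0.14 (SE), and Snx2 and Washc1 higher with pool B at -1.34 ± 0.20 (SE) and -1.12 ± 0.40 (SE). The Washc1 call was lost on leaving out replicate 2 of pool A, replicate 3 of pool A or replicate 1 of pool B (adjusted p 0.0515 to 0.119).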

How the data were processed

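RNA pulled down with oligo pool A or B was sequenced as strand-specific paired reads, 3 libraries a pool. The deposited table holds whole-number counts per gene, taken as raw. STAR and featureCounts were used, per the submitters' processing notes. Versions, genome build and strand setting are not given in the sources used here. The table's 2 deposited columns of signal per pool equal the means of the counts and were not used.

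All rows were fitted with edgeR 4.0.16 (TMM, filterByExpr, glmQLFTest, two-sided, Benjamini-Hochberg over 11582 rows) with the pool as the only term. SE is the log2 fold change over the square root of F, and 95% intervals use the t distribution of the fit. On simulated data with known changes, the fit recovered 54.5% of 2-fold and 88.2% of 4-fold changes. Unchanged genes made up 6.29% of its calls there. DESeq2 1.42.0 was an alternative.

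The members and lists were chosen with earlier results of these data known. Named by rule were, per class, up to 3 called genes a direction averaging at least 10 counts, the member of highest mean CPM, untested members and paralogs, and up to 2 genes a direction of each related list. The remaining members are named to account for their class, and Wdr45 was added after its value was seen. Same-numbered libraries correlated at 0.04103, -0.0203 and 0.0194 in their deviations from pool means, so the numbering was not treated as pairing. Libraries within a pool differed beyond sampling noise (chi-square per degree of freedom at least 5.86). Floors cover counting error only.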

Additional observations from a re-analysis of the deposited data

How the results depend on the processing

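Of the 38 called members, 25 stayed past the threshold under all 13 alternatives that tested against no change. None of the 38 changed direction where it had a value, which for Atg9b, Atp6v1fnb and Atp6v1c2 was 12 alternatives. The alternatives were other scalings, DESeq2, other filters, a replicate block and the omission of each library. The count was between 31 and 34 without single libraries, and was 33 in DESeq2. With replicate number as a block it was 36, with 18 genes higher with each pool. The numbers did not pair the libraries, and the block ended the calls of Atg16l2 and Atp6v1c2. Testing against a 1.5-fold change left 18 members (19.1%, against 23.1% of all tested rows), 9 higher with each pool. In the V1 sector the 5 calls became 2 with upper-quartile factors, 3 with RLE factors, 2 in DESeq2 and 2 to 3 without single libraries. In the V0 sector the single call became 2 with upper-quartile factors and 0 to 1 without single libraries. The members' median log2 fold change of 0.05 moved to -0.085 with total counts alone and to 0.16 with upper-quartile factors, and ranged from -0.032 to 0.13 without single libraries. Lamp1, near 0, changed sign to -0.14 with total counts alone, to -0.0052 with the replicate block and within a range of -0.071 to 0.12 without single libraries. Vps16 reached 0.036 without pool B replicate 3, in a range of -0.27 to 0.036. The cause of these changes was not tested. Atg9b and Atp6v1c2 rest on at most 34 and 30 counts in a library.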
